A study of Mus musculus with 12 samples.

Results

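The genes examined were 10 mouse genes of myoblast fusion, Mymk, Mymx, Jam2, Jam3, Mcam, Cdon, Boc, Neo1, Cav3 and Dysf, chosen by symbol as the fusogens and surface proteins of the process. They are 10 of the 55487 genes listed in the deposited counts, and all 10 were among the 14175 genes that passed the filter on low counts. They were measured by RNA sequencing in C2C12, a line of mouse myoblasts that leave the cell cycle in low serum and join into myotubes with many nuclei. All cultures were differentiated for 5 days in DMEM with 2% horse serum and penicillin/streptomycin. The medium was then changed for 24 h to one with either 4% horse serum (libraries 1 to 6) or 4% STEM (libraries 7 to 12). STEM is what human embryonic stem cells, partially differentiated, release into their medium, free of cells. It took the place of horse serum, so the addition of STEM and the removal of serum cannot be told apart in this comparison. The labels name no separate cultures behind the 6 libraries of a group, and the p-values therefore measure the spread between these libraries, which may be technical.

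Myoblasts fuse in ordered steps. Adhesion proteins such as the junctional adhesion molecules JAM-B and JAM-C and the immunoglobulin family receptors CDON and BOC hold cells together and signal that they are in contact. The muscle-specific membrane proteins myomaker (Mymk) and myomerger (Mymx) then drive the merging of the lipid bilayers, myomaker the mixing of the outer leaflets and myomerger the opening of the pore. Caveolin-3 (Cav3) and dysferlin (Dysf) belong to the membrane of the formed myotube, where they shape caveolae and reseal tears.

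Libraries held from 13285472 to 24536264 counts. Horse serum library 6 stood apart from the others. Each of 20 myotube markers, such as Acta1, Ckm and Myh3, was lower in it than in every other horse serum library. The summed level of these markers was 14969.6 CPM (a gene's counts scaled by the TMM-normalized size of the library) in library 6, between 29580.1 and 32099.6 CPM in horse serum libraries 1 to 5 and between 24003.4 and 31240.4 CPM with STEM. All 20 markers were detected in every library, so the label of differentiated myotubes held in that sense. The summed level of 9 markers of undifferentiated or reserve cells came to 1126 CPM in library 6. It was between 752 and 995 CPM in the other horse serum libraries and between 629 and 741 CPM with STEM. The largest parts were the cell cycle genes Top2a and Mki67 (means of 327 and 217 CPM with horse serum). In library 6, 5 of the 9 lay above every other horse serum library and 3 below, among them Pax7 (26.0 CPM). With STEM 5 of the 9 were lower in edgeR (adjusted p of at most 0.05), where 17.4% of all tested genes were. Without library 6, 5 were lower and 2 higher, against 24.5% and 26.3%. Each culture can hold myotubes beside unfused cells, and in such bulk RNA fewer cells of a type and less RNA per cell cannot be told apart. Results for the 10 genes are therefore given with and without library 6. In this library 4 of the 10 fusion genes lay below every other horse serum library (Mymk, Mymx, Boc and Cav3), 4 lay above (Mcam, Cdon, Neo1 and Dysf) and 2 lay within their range. The gap was small for Dysf (75.7 against at most 75.0 CPM) and Cdon (500.1 against at most 490.6 CPM). The share of all tested genes outside this range in library 6 was not counted, so these counts only describe the 10 genes.

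Of the 10 fusion genes, 6 passed edgeR's quasi-likelihood test of STEM against horse serum (called, that is with a Benjamini-Hochberg adjusted p of at most 0.05). Among all tested genes this share was 36.4%. Mymk, Jam2, Jam3, Mcam and Dysf were higher with STEM, where 18.9% of all tested genes were, and Cav3 was lower, where 17.4% were. For 5 of the 10 genes, all higher with STEM, the ranges of the groups were separate, against 17.2% of all tested genes (8.68% higher and 8.52% lower). Over the fold changes, the median on the log2 scale was 0.23 for the 10 genes and 0.01 for all tested genes. Without library 6 the number called rose to 8, with Mymx and Boc added as lower, against 50.8% of the genes tested in that fit (26.3% higher and 24.5% lower). The groups then did not overlap for 6 of the 10 genes, 5 higher and Cav3 lower, against 33.3% of all genes. In both comparisons Cdon and Neo1 were not called.

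**Figure D1:**
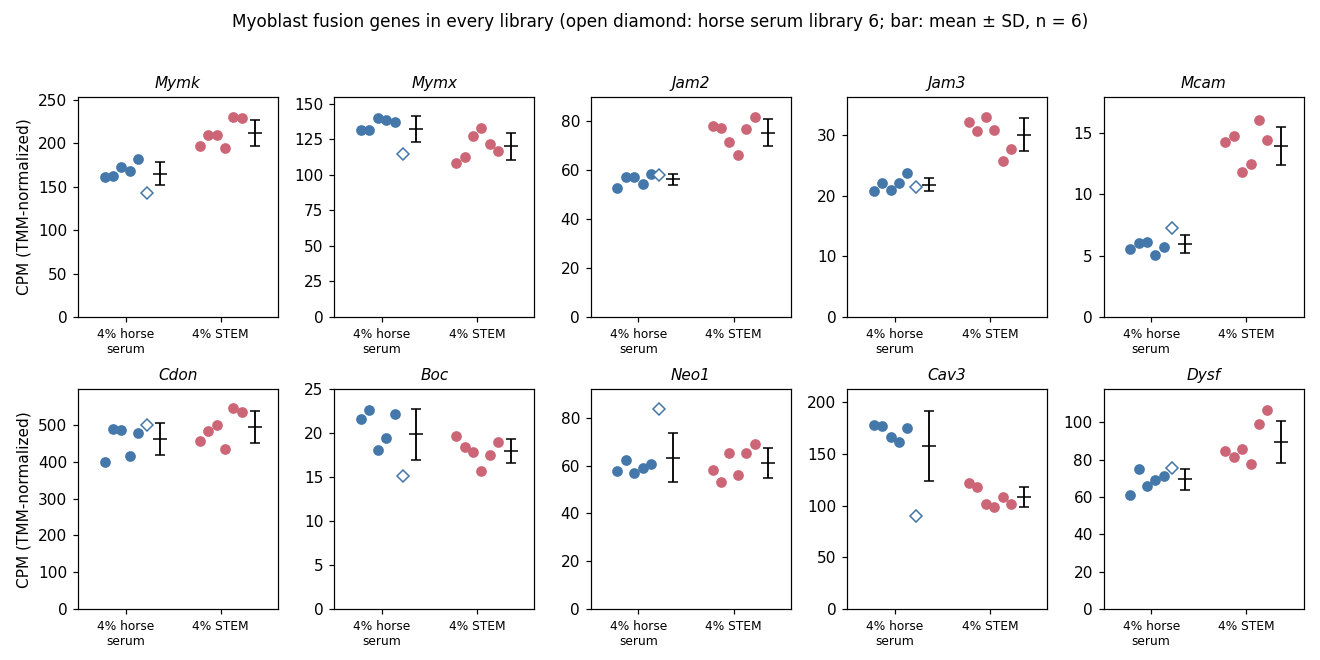
Level of each fusion gene in CPM (TMM-normalized, linear axis from 0) in each of the 6 libraries with 4% horse serum and the 6 with 4% STEM, with the mean ± SD beside them and horse serum library 6 as an open diamond. The groups are separate for Mymk, Jam2, Jam3, Mcam and Dysf, and for Cav3 the value of 89.9 CPM in library 6 lies below all STEM libraries.

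The fusogens moved apart. Mymk (ENSMUSG00000009214, chromosome 2, 27061636 to 27072179 on GRCm38), the gene of myomaker, ranged from 143 to 182 CPM with horse serum (median 165). With STEM it ranged from 195 to 230 CPM with a median of 209 CPM. Every STEM library lay above every horse serum library. The means were 165 ± 13.3 CPM and 212 ± 15.1 CPM (SD, n = 6 each), a 1.28-fold rise, or 0.36 ± 0.061 on the log2 scale (± standard error, adjusted p = 0.000361, edgeR). The lowest horse serum value was that of library 6, and without it the log2 fold change was 0.32 (adjusted p = 1.87e-05, edgeR). Mymk was called in each of the 12 fits that left out a library.

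Mymx (ENSMUSG00000079471, chromosome 17, 45600971 to 45602102), which encodes the micropeptide myomerger, did not share this rise. Its level was between 115 and 140 CPM with horse serum, with a median of 134 CPM, and between 109 and 133 CPM with STEM, with a median of 119 CPM. The groups overlapped, with and without library 6. The log2 fold change was -0.14 (95% interval -0.27 to -0.01), with an unadjusted p of 0.033 and an adjusted p of 0.0791 in edgeR, so Mymx was not called with all 12 libraries. Horse serum library 6 held the lowest value of its group, 115 CPM against 131 to 140 CPM in the other 5. When it was left out, Mymx passed the test as lower with STEM, at -0.18 ± 0.048 on the log2 scale (± standard error, adjusted p = 0.00395, edgeR). It also passed without STEM library 10, the highest of the STEM libraries.

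The balance of the fusogens was read as the ratio of Mymk to Mymx in each library, after dividing each level by the length of the merged exons in kilobases. With horse serum the log2 ratio was -0.24 ± 0.047 (SD, n = 6), from -0.28 to -0.15. With STEM it was 0.26 ± 0.16, from -0.00 to 0.42. All 6 STEM libraries lay above all 6 horse serum libraries, and the mean difference of 0.50 was the same without library 6, whose log2 ratio of -0.24 lay among those of its group. Library 6, the lowest of its group for both fusogens, thus did not stand apart in their ratio. The ratio is given as a description, with no test. The size of the ratio depends on the length used, while the difference between the groups does not.

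**Figure D2:**
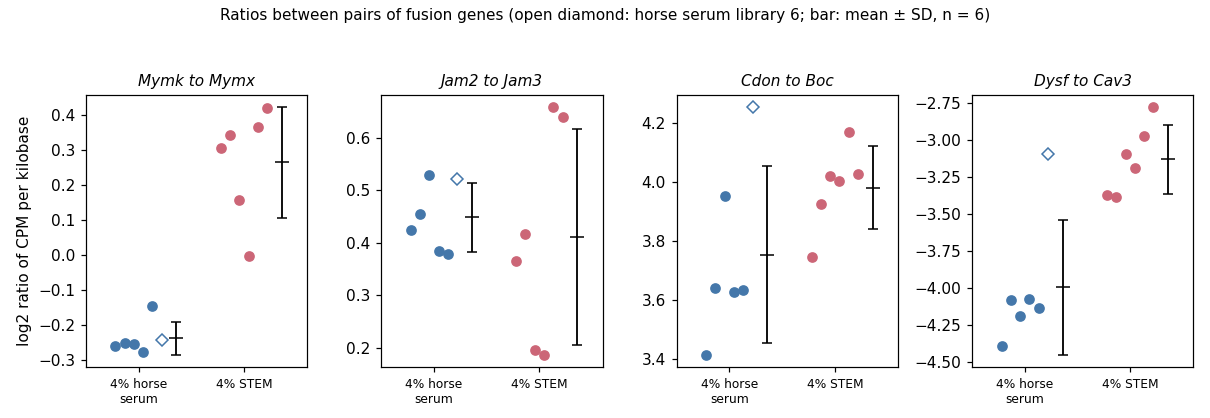
Log2 ratio of CPM per kilobase of merged exons for 4 pairs of fusion genes in each library (horse serum library 6 as an open diamond, mean ± SD beside the points, n = 6 per group). The ratio of Mymk to Mymx is at or below -0.15 in all horse serum libraries and at or above -0.00 in all STEM libraries, while the ratios of Jam2 to Jam3 and of Cdon to Boc overlap between the groups.

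Jam2, Jam3 and Mcam, which encode adhesion proteins of the immunoglobulin family, were higher with STEM. Jam2 (ENSMUSG00000053062, chromosome 16, 84774123 to 84825928), which encodes JAM-B, ranged from 52.6 to 58.4 CPM with horse serum (median 57.1) and from 66.5 to 81.8 CPM with STEM (median 77.3). Its groups were separate, and the difference on the log2 scale was 0.42 ± 0.053 (± standard error, adjusted p = 2.91e-05, edgeR). Jam3 (ENSMUSG00000031990, chromosome 9, 27097384 to 27155421), the gene of its binding partner JAM-C, ranged from 20.8 to 23.8 CPM (median 21.7) and from 25.8 to 33.0 CPM (median 30.8). Its groups were separate too, and the difference on the log2 scale was 0.46 ± 0.066 (± standard error, adjusted p = 9.19e-05, edgeR). Library 6 lay within the range of its group for both genes, and the log2 fold changes without it were 0.43 and 0.46.

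The ratio of the JAM genes did not follow the medium. The log2 ratio of Jam2 to Jam3 per kilobase was 0.45 ± 0.065 with horse serum and 0.41 ± 0.21 with STEM (SD, n = 6 each). Within the STEM group it varied more widely, from 0.19 in library 10 and 0.20 in library 9 to 0.64 in library 12 and 0.66 in library 11. In libraries 11 and 12 Jam3 had its lowest STEM values, 25.8 and 27.8 CPM.

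Mcam (ENSMUSG00000032135, chromosome 9, 44134469 to 44142727) had the highest fold change of the 10 genes and, per kilobase, the lowest level with horse serum. It encodes the melanoma cell adhesion molecule CD146, a receptor of endothelial cells, pericytes and myogenic cells. It ranged from 5.08 to 7.23 CPM with horse serum (median 5.88) and from 11.8 to 16.0 CPM with STEM (median 14.3). The groups were separate by a wide margin, although library 6 had the highest value of the horse serum group. The mean of 5.96 ± 0.725 CPM with horse serum and that of 13.96 ± 1.55 CPM with STEM (SD, n = 6 each) correspond to a 2.34-fold rise. On the log2 scale this was 1.22 ± 0.10 (± standard error, adjusted p = 5.47e-07, edgeR), and 1.29 without library 6. These values rest on 78 to 349 counts per library, the lowest depth among the 10 genes.

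Since Mcam also marks vascular cells, their markers are given beside it. The 6 pericyte and smooth muscle markers summed to between 104 and 151 CPM in horse serum libraries 1 to 5, to 291 CPM in library 6 and to between 222 and 313 CPM with STEM. Nearly all of this came from Pdgfrb and Cspg4, which myoblasts and fibroblasts express as well, while Kcnj8 had 0 counts in every library and Rgs5 at most 2. With all 12 libraries Pdgfrb was called higher with STEM (log2 fold change 0.76, adjusted p = 0.0324, edgeR). Cspg4 (0.32) and Abcc9 (0.77) were tested but not called. Without library 6 all 3 tested markers of this list were called higher. Their log2 fold changes were 1.06 for Pdgfrb, 0.47 for Cspg4 and 0.51 for Abcc9 (adjusted p = 8.7e-05, 0.026 and 0.0152, edgeR). Abcc9 was at most 3.84 CPM in any library. The 7 endothelial markers summed to at most 3.69 CPM in any library, with Kdr and Emcn at 0 and Pecam1 at most 2 counts. The part of cells expressing Pdgfrb, Cspg4 or Abcc9 in the result for Mcam was not tested.

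The DNA before the first annotated exon of Mcam is shown with that of Cav3 and Dysf, the other called genes for which a promoter sequence was at hand, to set the start of the member with the highest fold change beside those of the pair that moved in opposite directions. Sequences are from RefSeq on GRCm38.p6, plus strand, 5′ to 3′, at chr9:44134408-44134468 for Mcam, chr6:112459255-112459504 for Cav3 and chr6:84008348-84008589 for Dysf. Capitals mark the E-box CANNTG, the motif bound by MyoD and related factors, which reads the same on both strands.
Mcam: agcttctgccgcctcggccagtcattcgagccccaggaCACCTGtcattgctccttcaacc
Cav3: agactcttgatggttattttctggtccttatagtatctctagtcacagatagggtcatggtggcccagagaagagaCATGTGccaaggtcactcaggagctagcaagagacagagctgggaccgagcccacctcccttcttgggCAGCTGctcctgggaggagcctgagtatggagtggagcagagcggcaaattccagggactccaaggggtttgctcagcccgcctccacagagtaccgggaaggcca
Dysf: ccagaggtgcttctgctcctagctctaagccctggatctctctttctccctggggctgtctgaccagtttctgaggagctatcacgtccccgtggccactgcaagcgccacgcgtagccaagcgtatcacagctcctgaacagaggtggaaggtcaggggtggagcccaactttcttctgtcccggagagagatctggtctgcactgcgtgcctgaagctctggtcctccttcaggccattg
Mcam held 1 E-box in 61 bases, which begin 250 bases before its RefSeq start at 44134658. In the window at that same distance, 23.5% of the 32851 RefSeq starts hold at least 1. Cav3 held 2 in 250 bases, where 31.8% of all starts hold 2 or more. The 242 bases before the upstream start of Dysf held 0, where 65.3% of all starts hold at least 1. A match is a run of letters and not a measured binding site. Promoter entries were also found for Cdon and Neo1, and none were used for Mymk, Mymx, Jam2, Jam3 and Boc.

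Cdon, Boc and Neo1, whose products take part in netrin and hedgehog signalling and relay cell contact to the myogenic transcription factors, were not called with all 12 libraries. Cdon (ENSMUSG00000038119, chromosome 9, 35421128 to 35507652) had the highest CPM of the 10 genes, from 401 to 500.1 CPM with horse serum (median 482) and from 436 to 546 CPM with STEM (median 493). The groups overlapped over most of their range, and the log2 fold change was 0.10 with a 95% interval of -0.06 to 0.25 (adjusted p = 0.317, edgeR). Without library 6 it was 0.12 (adjusted p = 0.156).

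Boc (ENSMUSG00000022687, chromosome 16, 44485049 to 44558897), which encodes a receptor related to CDON, was far less expressed, at 15.1 to 22.7 CPM with horse serum (median 20.5) and 15.7 to 19.7 CPM with STEM (median 18.1). The groups overlapped, and the log2 fold change of -0.14 was not called (95% interval -0.34 to 0.06, adjusted p = 0.277, edgeR). Library 6 again decided the call, since its 15.1 CPM lay below all other libraries of both groups. Without it Boc was lower with STEM, by -0.21 ± 0.073 on the log2 scale (± standard error, adjusted p = 0.0244, edgeR), although the groups still overlapped. The log2 ratio of Cdon to Boc was 3.75 ± 0.30 with horse serum and 3.98 ± 0.14 with STEM (SD, n = 6 each), and its ranges overlapped with and without library 6.

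Neo1 (ENSMUSG00000032340, chromosome 9, 58874687 to 59036441) encodes neogenin, a receptor of netrins and repulsive guidance molecules that also associates with CDON. It ranged from 56.9 to 83.6 CPM with horse serum (median 59.8) and from 53.0 to 68.8 CPM with STEM (median 61.6). The highest of all 12 values was that of library 6, while horse serum libraries 1 to 5 lay between 56.9 and 62.1 CPM. The log2 fold change was -0.06 with all libraries (95% interval -0.26 to 0.15, adjusted p = 0.68, edgeR). It turned to 0.04 without library 6 (95% interval -0.09 to 0.17, adjusted p = 0.595), and neither value passed the test.

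The genes of the myotube membrane went in opposite directions. Cav3 (ENSMUSG00000062694, chromosome 6, 112459505 to 112472872), which encodes the muscle-specific scaffold of caveolae, ranged from 161 to 178 CPM in horse serum libraries 1 to 5 and was at 89.9 CPM in library 6. With STEM it ranged from 98.7 to 122 CPM with a median of 105 CPM. All STEM libraries therefore lay below horse serum libraries 1 to 5 and above library 6. With all 12 libraries Cav3 fell to 0.687 of the horse serum level, or by -0.54 ± 0.14 on the log2 scale (± standard error, adjusted p = 0.00876, edgeR). Without library 6 it was -0.66 with a far smaller standard error (0.052, adjusted p = 8.92e-09), and the groups were separate. Of the 20 myotube markers, 4 were called with all libraries (2 higher and 2 lower), a smaller share than the 36.4% of all tested genes. Without library 6 there were 14 (2 higher and 12 lower), or 70.0% against 50.8% of all genes, with a median log2 fold change of -0.25. The part of the myotube markers' lower levels in the result for Cav3 was not tested.

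Dysf (ENSMUSG00000033788, chromosome 6, 84008590 to 84211060) encodes dysferlin, a calcium-binding protein that brings vesicles to wounded membrane. It ranged from 60.9 to 75.7 CPM with horse serum (median 70.2) and from 78.0 to 107 CPM with STEM (median 85.3). The ranges were separate but close. The difference on the log2 scale was 0.36 ± 0.078 (± standard error, adjusted p = 0.00224, edgeR) and 0.39 without library 6, in which Dysf had the highest value of the horse serum group. In library 6 only Cav3 lay far from the other horse serum libraries on the STEM side, at 89.9 against 161 to 178 CPM. Dysf in library 6, at 75.7 against at most 75.0 CPM in the others, was close to them and below every STEM library. The log2 ratio of Dysf to Cav3 per kilobase was between -4.39 and -4.07 in horse serum libraries 1 to 5, -3.09 in library 6 and between -3.38 and -2.77 with STEM. The groups were separate in this ratio without library 6, with a mean difference of 1.05, and overlapped with it.

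**Figure D3:**
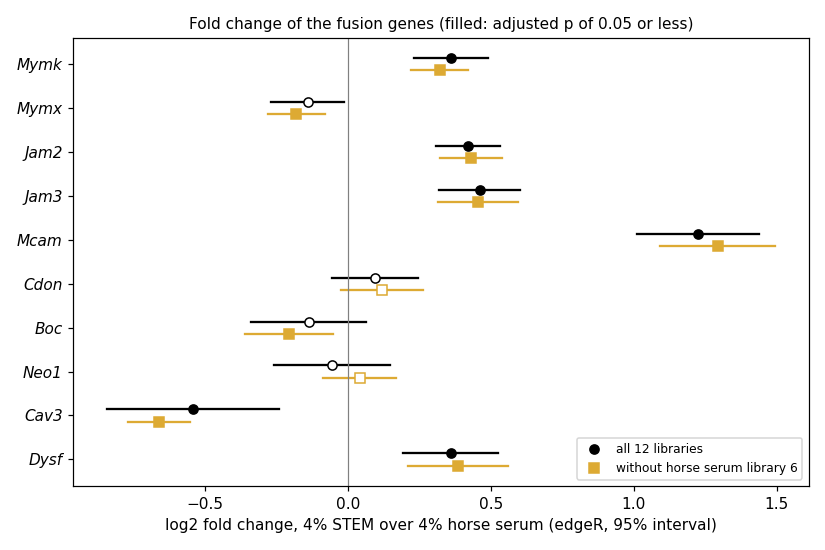
Log2 fold change of each fusion gene (4% STEM over 4% horse serum, edgeR) with its 95% interval, for all 12 libraries (circles) and without horse serum library 6 (squares), filled where the adjusted p-value was 0.05 or less. The interval of Cav3 narrows from -0.84 to -0.24 with all libraries to -0.77 to -0.55 without library 6, and Mymx and Boc are filled only in the second.

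Levels can be compared between genes only per length. In CPM per kilobase of merged exons, the order with horse serum was Cav3 (136 ± 29.3), Mymx (129 ± 9.08), Mymk (109 ± 8.80), Cdon (59.9 ± 5.51), Jam2 (9.31 ± 0.373), Dysf (8.36 ± 0.683), Neo1 (7.26 ± 1.16), Jam3 (6.83 ± 0.344), Boc (4.46 ± 0.653) and Mcam (1.78 ± 0.217, SD, n = 6 each). The fusogens, Cav3 and Cdon thus formed an upper tier and the other 6 genes a lower one, with no library of one tier in the range of the other. Within the upper tier the ranges of Cav3, Mymx and Mymk overlapped between neighbours only through library 6. Without it Cav3 (139 to 154), Mymx (128 to 136) and Mymk (107 to 121 CPM per kilobase) were separate. Cdon lay below all of them in either case. In the lower tier neighbours from Jam2 to Jam3 overlapped, while Boc lay below Jam3 and Mcam below Boc without overlap. Without library 6 the range of Neo1 (6.52 to 7.13) no longer reached that of Dysf (7.32 to 9.01), and the mean of Neo1 (6.80) fell just under that of Jam3 (6.86), with overlapping ranges. With STEM Mymk took the first place (140 ± 10.02 CPM per kilobase), ahead of Mymx (117 ± 8.95) and Cav3 (93.6 ± 8.26). Places within a tier depend on the length used. Mymx has 1027 bases of merged exons and 804 in its longest transcript, while Cav3 has 1157 in both. With the length of the longest transcript, the log2 ratio of Mymk to Mymx with STEM ran from -0.23 to 0.19 (mean 0.040). At the foot of the order Mcam (4.17 ± 0.463) was level with Boc (4.05 ± 0.310), their ranges overlapping.

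**Figure D4:**
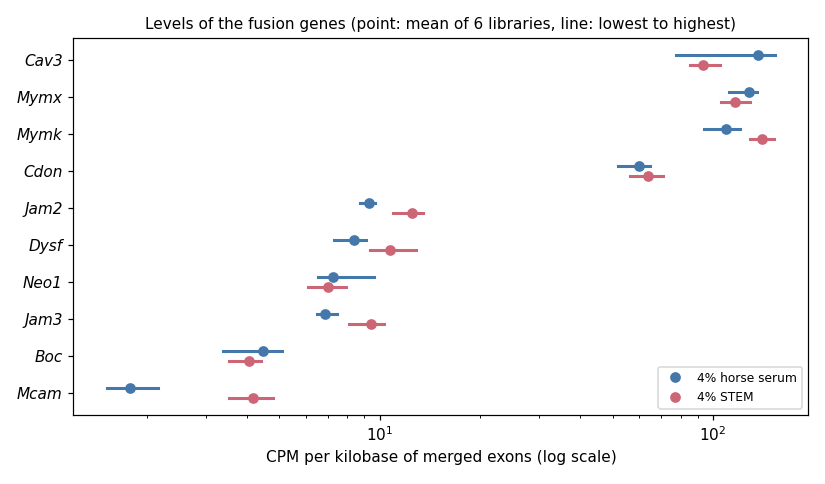
Level of each fusion gene in CPM per kilobase of merged exons (log axis) with 4% horse serum and 4% STEM, as the mean of 6 libraries and a line from the lowest to the highest. Mymk, Mymx, Cav3 and Cdon lie at 51.9 CPM per kilobase or more in every library and the other genes at 13.5 or less.

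The other genes of the pathway were counted in 5 lists, whose shares of called genes are to be read against 36.4% of all tested genes, or 50.8% without library 6. Of 26 ligands and partners of the 10 proteins, 12 were tested and 6 were called, 3 in each direction. Without library 6 there were 8 of 13, 4 in each direction. Ntn1, a netrin that binds neogenin, fell from 49.4 ± 3.99 to 30.6 ± 2.47 CPM (SD, n = 6 each, adjusted p = 3.34e-06, edgeR). Vcam1, an adhesion molecule of myoblasts and myotubes, fell from 101 ± 5.04 to 57.9 ± 5.39 CPM (adjusted p = 2.33e-07). Gas1, a hedgehog co-receptor that acts beside CDON and BOC, was lower by 0.46 on the log2 scale, and Unc5b, another netrin receptor, was higher by 0.56. The other called genes of the list, named after their values were seen, were Cdh15 and Rgma, both higher (log2 fold changes 0.46 and 0.34). Cdh15 encodes M-cadherin, and its 459 CPM in library 6 lay within the STEM range of 440 to 507 CPM, above the 296 to 361 CPM of the other horse serum libraries. Shh, Cdh4 and Unc5d, also named after their values were seen, had 0 counts in every library.

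Of 28 other adhesion and surface proteins, 23 were tested and 9 were called, 2 higher and 7 lower with STEM. This share of 39.1% was near that of all genes, and without library 6 there were 11 called (47.8%), 4 higher and 7 lower. Among the lower genes, the tetraspanin gene Cd9 went from 221 ± 12.2 to 139 ± 13.1 CPM (SD, n = 6 each, adjusted p = 1.7e-06, edgeR). The tetraspanin Cd53 and the integrin subunits Itga3 and Itga7 were lower by -1.47, -0.70 and -0.26 on the log2 scale, Cd53 from only 3.23 CPM. The higher genes, named after their values were seen, were the metalloprotease gene Adam12 (0.72) and the tetraspanin gene Cd82 (0.26). Adam12 resembled Cdh15 in library 6, with 60.4 CPM against 27.5 to 32.8 CPM in the other horse serum libraries and 50.1 to 68.4 CPM with STEM.

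Of 43 genes of actin remodelling and endocytosis, 41 were tested and 14 were called, 4 higher and 10 lower. The share of 34.1% was near that of all genes, as was that of 46.3% without library 6 (9 higher and 10 lower). Swap70, which binds actin and Rac, had the lowest p-value (log2 fold change -0.70, adjusted p = 2.16e-07, edgeR), followed by the p21-activated kinase Pak3 (-0.40), the GTPase-activating protein Arhgap10 (-0.34) and the kinase Pak1 (-0.27). Of 32 genes of ferlins, caveolae and membrane repair, 28 were tested and 11 were called, 2 higher and 9 lower. The share of 39.3% was again near that of all genes, as was that of 53.6% without library 6 (4 higher and 11 lower). Cavin2 fell from 150 ± 11.05 to 83.7 ± 7.98 CPM (SD, n = 6 each, adjusted p = 4.04e-07, edgeR), Cav2 by 0.80 and Cavin1 by 0.34 on the log2 scale, and for each the groups of libraries did not overlap. Cav1 (-0.27) and the muscle-specific Cavin4 (-0.49), named after their values were seen, were also called lower, but their groups overlapped through library 6. In that library Cavin4 was at 224 CPM, against 443 to 466 CPM in the other horse serum libraries and 270 to 320 CPM with STEM. For Cav1 these values were 283 CPM, 344 to 408 CPM and 269 to 337 CPM. Cavin3 (0.05, adjusted p = 0.536) and Pacsin2 (-0.14, adjusted p = 0.0864), also of caveolae and also named after their values were seen, were not called. S100a10, a partner of annexin A2, was lower by 0.36. The higher genes of this list, also named after their values were seen, were Capn1 (0.15) and Pacsin3 (0.24). Myof, the ferlin most like dysferlin and also named after its values were seen, was not called (log2 fold change -0.26, adjusted p = 0.165). It was at 448 CPM in library 6 against 231 to 270 CPM in the other horse serum libraries.

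All 32 regulators of fusogen transcription were tested, and 19 were called (59.4%), 10 higher and 9 lower. Without library 6 there were 25 (78.1%), 15 higher and 10 lower. Tgfb2 rose from 40.0 ± 4.44 to 72.5 ± 4.79 CPM (SD, n = 6 each, adjusted p = 5.59e-07, edgeR), and Snai1, a repressor that binds E-boxes, was higher by 0.68 on the log2 scale. Mapk3, which encodes the kinase ERK1, was lower by 0.34. The genes of the MyoD and Mef2 families in this list, named after their values were seen, went in different directions. Myod1 was at 84.8 ± 6.97 and 86.4 ± 8.71 CPM (adjusted p = 0.797), and Myog went from 907 ± 38.3 to 745 ± 83.8 CPM (log2 fold change -0.29, adjusted p = 0.00403, edgeR). Myf5 was lower (-0.42, adjusted p = 0.00132) and Mef2d higher (0.30, adjusted p = 0.0347), while Myf6, Mef2a and Mef2c were not called. Without library 6, Mef2c was called lower (-0.19), and Mef2a (0.28) and Myf6 (0.50) were called higher. The median log2 fold changes of the 5 lists, in the order given, were -0.08, -0.01, -0.05, -0.09 and 0.14, beside 0.01 for all tested genes. Every gene named from the lists by its p-value was also called in the same direction without library 6.

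**Figure D5:**
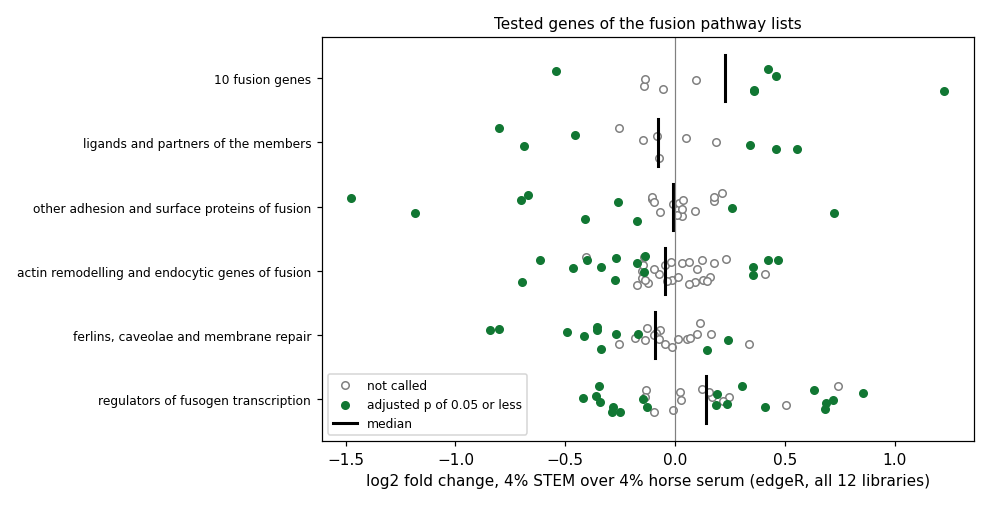
Log2 fold change (4% STEM over 4% horse serum, edgeR, all 12 libraries) of each tested gene among the 10 fusion genes and in the 5 pathway lists, filled where the adjusted p-value was 0.05 or less, with the median of each as a black bar. Medians lie between -0.09 and 0.23. On the lower side are 9 of the 11 called genes of ferlins, caveolae and membrane repair, 7 of 9 of other adhesion and surface proteins and 10 of 14 of actin remodelling. For ligands and partners it is 3 of 6, and for regulators of fusogen transcription 9 of 19. Of all tested genes, 17.4% were called lower and 18.9% higher.

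The genes whose profile over the 12 libraries was most like that of a fusogen were found by the root mean square difference of log2 CPM after centring. For Mymk they were Map4, Med7, Nuak1, Eif3j2 and Trak2, with differences of 0.072 to 0.084. For Mymx they were D8Ertd738e, Map1lc3b, Serinc5, Klhl33 and Gcdh, with differences of 0.056 to 0.064. Neither set held a gene of the pathway lists. These lists cover a small part of the 14175 tested genes, so their absence was likely in any case and nothing is concluded from it.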

How the data were processed

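The authors prepared ribosomal RNA-depleted, stranded total RNA libraries and deposited 1 table of raw read counts per Ensembl gene for 12 libraries, without normalization. The submitters' processing notes name STAR 2.7.3a, featureCounts 1.6.3, DESeq2 1.26.0 and build GRCm38. The annotation release and the strand setting of the counting are not given in the sources used here. Antisense genes annotated over exons of Jam3, Mcam and Dysf had at most 14 counts in any library.

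Libraries were grouped by their labels and none was left out of the main results. Symbols, positions and exon lengths came from GENCODE M21 (GRCm38). Counts were tested in edgeR 4.0.16 (R 4.3.3) with filterByExpr, TMM normalization, robust dispersions and the quasi-likelihood test, with Benjamini-Hochberg adjustment over all 14175 tested genes. Standard errors are the log2 fold change divided by the square root of the F statistic. CPM were computed by edgeR from the TMM-scaled library sizes, and log2 CPM for the profile comparison used a prior count of 2. Depth was 13285472 to 24536264 counts per library, and intervals rest on the spread between libraries. Chi-square per degree of freedom between libraries of a group was 3.54 or more, so no pair was counted as 1 sample. The tests were tried on simulated counts.

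Named genes were all 10 members, up to 4 called genes per pathway list with the lowest p-values, and the 5 genes nearest to Mymk and Mymx in profile, with later additions marked. Of the genes this rule names in the pathway lists, 1 is not reported here. Members and lists were chosen with earlier results of these data known. Markers of macrophages (5 genes) summed to at most 5.71 CPM. Those of Schwann or neural cells (5 genes) reached 6.92 CPM in the horse serum group and 23.8 CPM in the STEM group, most of the latter from Tubb3. The alternatives were other scalings and filters, DESeq2 1.42.0, limma-voom (limma 3.58.1), leaving out each library and, for ratios, the longest transcript's length. The same scalings and tools without library 6 were added after seeing the data.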

Additional observations from a re-analysis of the deposited data

Results flagged for a closer look

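Each group of 6 libraries was examined for a single library far from the rest (Dixon's criterion) in the 10 fusion genes, the 20 named genes of the pathway lists and the 4 ratios, 68 groups in all. Chance alone marks about 1 in 20 groups that are independent and unselected. Here the groups share libraries and the pathway genes were picked for low p-values, so this rate is only a rough guide. There were 8 such values, and 7 of them came from horse serum library 6. In that library Mymx (114.5 CPM), Cav3 (89.9 CPM), Pak3 (54.7 CPM) and Arhgap10 (80.9 CPM) were far below the other horse serum libraries. Neo1 (83.6 CPM) and Unc5b (147.5 CPM) were far above them, as was the log2 ratio of Dysf to Cav3 (-3.09). The remaining value was the log2 ratio of Mymk to Mymx in horse serum library 5 (-0.15), the highest of its group and still below every STEM library. No STEM library was marked.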

How the results depend on the processing

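The libraries are numbered 1 to 6 and 7 to 12, and the labels do not say whether any were matched between the groups. No paired analysis was therefore made. The calls of Mymk, Jam2, Jam3, Mcam, Dysf and Cav3 held, with their direction, under all 6 alternatives of scaling, filter and tool and in all 12 fits that left out a library, the highest adjusted p being 0.0372 for Cav3 without a filter on low counts. Library 6 decided the calls of Mymx and Boc, and Mymx was also called without STEM library 10. The log2 fold change of Neo1 ran from -0.092 to 0.041 with a library left out, changed sign only without horse serum library 6, and was not called in any of these fits. The number of fusion genes called was 6 under each of the 6 alternatives and 6 to 8 with a library left out. Over all genes it was 4648 to 5321 under the alternatives and 4459 to 7245 with a library left out, the highest without horse serum library 6. Of the genes of actin remodelling and endocytosis, 14 were called in the main analysis and 9 without a filter on low counts. With the length of the longest transcript, the mean log2 ratio of Mymk to Mymx was -0.46 with horse serum and 0.040 with STEM, that of Jam2 to Jam3 0.20 and 0.16, and that of Dysf to Cav3 with STEM -2.84. These shifts are constant offsets, so differences between groups are not affected. Without library 6, the number of fusion genes called was 8 with DESeq2, limma-voom and DESeq2's size factors, and 7 with total counts only, where Boc was not called. With all 12 libraries, other scalings moved the median log2 fold change of all genes by at most 0.02, and with total counts only and without library 6 that median was 0.05.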
